A study of Mus musculus with 6 samples.

Results

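The genes described here are 9 imprinted protein-coding genes of the mouse, out of 21883 protein-coding genes on chromosomes 1 to 19, X and Y: Snrpn, Grb10, Plagl1, Peg3, Dlk1, Igf2r, Mest, Nnat and Cdkn1c. They were chosen by name, and each peak that touched the RefSeq gene or the 10 kb on either side of it was taken from the 6 peak lists. The lists come from CUT&RUN of mouse gastrocnemius, a fast hindlimb muscle, in which a nuclease tethered by an antibody releases DNA around a marked nucleosome. They cover H3K4me3, a mark of active promoters, in Ctrl muscle, and H3K9me2, a repressive mark, in CKO and in Ctrl muscle. A further 3 lists come from input, 1 from CKO and 2 from Ctrl.

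CKO mice were Phf2 flox/flox;Acta1 Cre+, in which Cre is driven by the skeletal muscle actin promoter, and Ctrl mice carried the same floxed alleles without Cre (Phf2 flox/flox;Acta1 Cre-). Both were males on C57BL/6, aged 4 weeks. The H3K4me3 library is titled wild type but carries the genotype of Ctrl and is treated as such. PHF2 is described as a demethylase of H3K9me2 that binds H3K4me3. Acta1 drives expression in muscle fibres, so other cells of the tissue, which the lists do not tell apart, may keep PHF2. There was 1 library per mark and genotype apart from the 2 Ctrl inputs, so no test between genotypes was possible and differences between lists have no replicate check.

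An imprinted gene is expressed mainly from the copy inherited from either the mother or the father. A control region that carries DNA methylation on a single parental copy sets this pattern, and at the silent copy histones often bear H3K9 methylation while the active copy bears H3K4me3. Peak lists do not separate the parental copies. In muscle several of these genes are linked to growth: Grb10 restrains insulin and IGF signalling, Igf2r takes up and degrades IGF2, Cdkn1c stops the cell cycle, and a change near Dlk1 enlarges hindquarter muscle in sheep.

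The lists differ in length and depth. H3K4me3 held 16573 peaks, H3K9me2 12832 in CKO and 3703 in Ctrl, and input 10931 in CKO against 3071 and 1309 in Ctrl. Fold is the authors' own value for each peak, with 1 added to both the summit fragments and the local background before division, so it understates the plain ratio at low counts. Summit fragments, read back from fold and p, had a median of 52 for H3K4me3, 9 for H3K9me2 in CKO, 6 for H3K9me2 in Ctrl, 7 for the CKO input and 6 for each Ctrl input. Background coverage ranged from 0.292 fragments per position in Ctrl input 2 to 0.544 in CKO H3K9me2. As a tissue check, 5 of 8 muscle fibre markers had an H3K4me3 peak within 2 kb of a gene end, against 1 of 4 endothelial, immune, fibroadipogenic, Schwann, adipocyte and liver markers each, with 3 of 4 for satellite cells and 59.5% of all protein-coding genes. Acta1, Ckm and Myh4 were the fibre markers without one. With the fibre share near that of all genes, the check does not single out muscle fibres. Phf2 itself had 2 H3K4me3 peaks in Ctrl and none in the other 5 lists, which does not check the knockout.

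Promoter sequence is shown first, since H3K4me3 peaks lay at the CG-richer start sites. RefSeq promoters (GRCm38.p6, the assembly of mm10), each 250 bases before to 50 after a start site, were matched for 8 of the 9 genes, at 14 start sites, and Cdkn1c was not matched. Grb10 and Mest each have a CG-rich promoter that overlapped an H3K4me3 peak and a CG-poor one that did not. They are set here beside Nnat, whose CG-rich promoter had no such peak, and the shared start of Snrpn and Snurf. Letters run 5′ to 3′ on the strand of the gene, and capitals mark each CG dinucleotide. The sites are chr11:12037371-12037670 and chr11:12027922-12028221 (both minus strand) for Grb10, chr6:30737800-30738099 and chr6:30733256-30733555 (both plus) for Mest, chr2:157559828-157560127 (plus) for Nnat and chr7:60005150-60005449 (minus) for Snrpn.
Grb10 upstream promoter, with a peak: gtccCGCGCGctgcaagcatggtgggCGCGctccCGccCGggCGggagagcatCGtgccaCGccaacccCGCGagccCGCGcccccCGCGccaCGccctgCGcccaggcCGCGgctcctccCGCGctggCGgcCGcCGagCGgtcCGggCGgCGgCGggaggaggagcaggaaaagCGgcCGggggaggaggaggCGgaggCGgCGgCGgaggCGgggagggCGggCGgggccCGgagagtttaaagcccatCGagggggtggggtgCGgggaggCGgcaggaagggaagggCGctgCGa
Grb10 downstream promoter, without a peak: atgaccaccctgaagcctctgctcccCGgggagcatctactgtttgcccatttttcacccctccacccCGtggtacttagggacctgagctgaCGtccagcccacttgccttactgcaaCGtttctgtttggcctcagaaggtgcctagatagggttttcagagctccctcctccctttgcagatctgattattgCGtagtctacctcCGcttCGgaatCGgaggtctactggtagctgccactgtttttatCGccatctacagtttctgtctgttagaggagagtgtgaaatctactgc
Mest downstream promoter, with a peak: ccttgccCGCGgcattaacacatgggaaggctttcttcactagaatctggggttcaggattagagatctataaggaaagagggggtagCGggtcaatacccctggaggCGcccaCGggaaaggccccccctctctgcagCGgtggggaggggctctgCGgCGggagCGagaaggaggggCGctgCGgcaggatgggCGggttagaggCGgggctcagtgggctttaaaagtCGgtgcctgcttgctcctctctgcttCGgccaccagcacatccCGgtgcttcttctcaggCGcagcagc
Mest upstream promoter, without a peak: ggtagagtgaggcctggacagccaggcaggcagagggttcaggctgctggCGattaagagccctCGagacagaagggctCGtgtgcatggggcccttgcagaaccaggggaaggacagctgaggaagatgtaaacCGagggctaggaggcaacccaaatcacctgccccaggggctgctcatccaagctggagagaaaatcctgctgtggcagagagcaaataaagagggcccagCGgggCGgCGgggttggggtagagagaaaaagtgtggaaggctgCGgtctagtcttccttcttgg
Nnat promoter, without a peak: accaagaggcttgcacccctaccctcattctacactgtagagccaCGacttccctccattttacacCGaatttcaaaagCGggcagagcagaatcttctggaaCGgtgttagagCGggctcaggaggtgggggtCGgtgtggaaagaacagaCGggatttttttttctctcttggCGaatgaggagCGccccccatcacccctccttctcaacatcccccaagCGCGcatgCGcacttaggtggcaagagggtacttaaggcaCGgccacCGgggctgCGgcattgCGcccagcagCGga
Snrpn and Snurf promoter, without a peak: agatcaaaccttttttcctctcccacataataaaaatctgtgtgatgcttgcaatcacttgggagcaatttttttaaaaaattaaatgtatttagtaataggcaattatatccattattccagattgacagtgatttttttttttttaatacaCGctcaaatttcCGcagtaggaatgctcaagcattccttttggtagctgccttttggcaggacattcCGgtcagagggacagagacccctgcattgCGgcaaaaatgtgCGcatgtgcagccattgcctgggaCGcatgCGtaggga

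The upstream Grb10 promoter holds 45 CG dinucleotides and the downstream one 9. In Mest the downstream promoter holds 17 and the upstream one 8. The Igf2r promoter has 34 and that of Plagl1 26, and both overlapped an H3K4me3 peak, as did the Peg3 promoter with 13. Dlk1 has 9, the Snrpn and Snurf start 7 and the other 3 Snrpn starts 2, 3 and 4, and none of these 5 overlapped a peak. Of the 14 start sites, 6 overlapped an H3K4me3 peak, where 38.9% of the 32817 distinct RefSeq promoters did. The 6 belong to 5 genes, since 2 are Mest starts whose sequences overlap almost wholly. The 6 carried 13 to 45 CG and the other 8 carried 2 to 17. Over all promoters the share with a peak was 1.01% at 0 to 4 CG, 12.7% at 5 to 9, 51.4% at 10 to 14, 81.1% at 15 to 19 and 96.5% at 30 or more. By that scale the Nnat promoter, with 17 CG and no peak, was among the fewer than 1 in 5 of its class without H3K4me3.

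**Figure D1:**
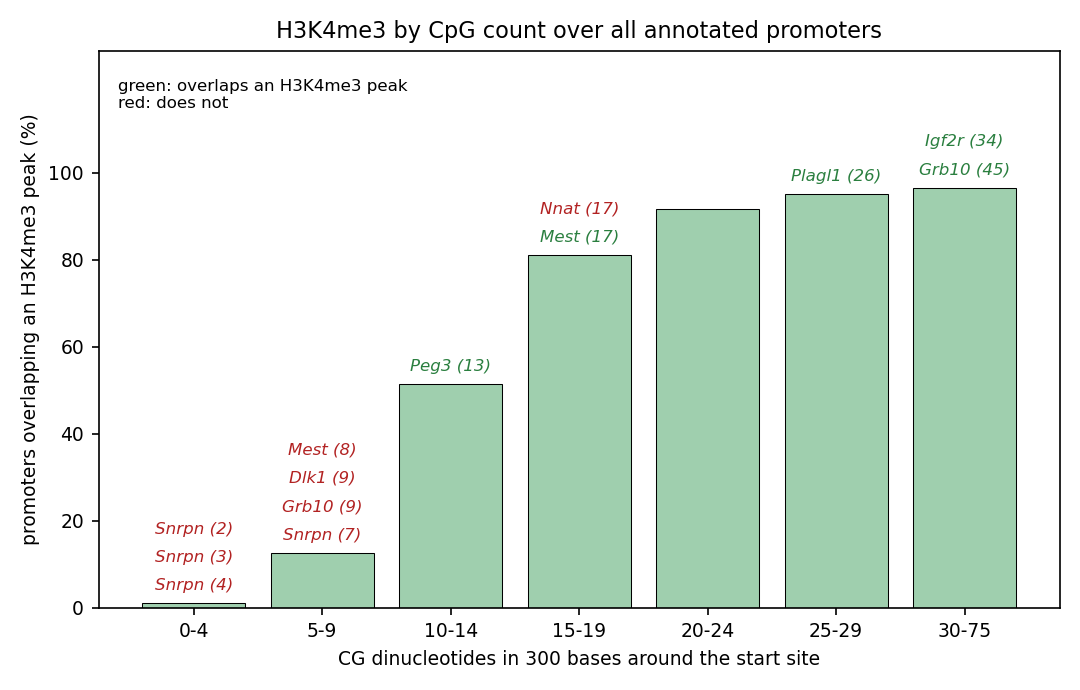
Bars give the percentage of all RefSeq promoters that overlap an H3K4me3 peak in Ctrl muscle, by number of CG dinucleotides in the 300 bases. Names are the start sites of the imprinted genes with their CG number, green where a peak overlaps: of the sites with 13 or more CG, Nnat alone has no peak. Sites of a gene with equal numbers are drawn once.

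Motifs were searched on both strands of these promoters. TGCCGC, the sequence that ZFP57 binds when methylated at imprinting control regions, was present at the promoters of 5 of the 8 genes, namely Snrpn, Grb10 (upstream), Plagl1, Mest (downstream) and Nnat, and at 6 of the 14 start sites, of which 2 in Mest overlap almost wholly. It was present in 11.6% of all promoters, in 25.2% of those with 15 or more CG and in 4.43% of the others. These shares are per promoter, whereas the count of genes takes a match at any start site of a gene. The share of all genes with a match was not counted, so the 5 of 8 has no background here. GCCATNTT, a YY1 motif, was in none of the 14 start sites and in 6.04% of all promoters. TATAAA was at 1 Snrpn start site and in 13.6% of all promoters. A match is only a run of letters, and no binding was measured.

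H3K4me3 in Ctrl muscle lay within 10 kb of each of the 9 genes, where 68.1% of protein-coding genes had such a peak. There were 15 peaks, with a median of 2 per gene against 1 over all genes. Of the 9 genes, 5 had 2 or more, against 28% of all genes. The median gene length was 26.6 kb for the 9 and 17.2 kb for all genes, and these peak numbers were not matched for length. Snrpn alone had 3, as 8.43% of genes had 3 or more. Snrpn is long, and its 3 peaks gave 6.15 per Mb of window, against 8.39 for chromosome 7 and 6.24 for the genome. All 9 had a peak in at least 1 of the 6 lists, while 23.2% of all genes had one in none. Their folds ran from 3.69 to 15.4 with a median of 8.45, below the median of 10 for the whole list, and their summits held 7 to 105 fragments with a median of 28, against 52. Of the 15 peaks, 7 lay within 2 kb of a gene end, 6 deeper in the gene and 2 outside it. A peak in the window is not always the gene's own, and the next paragraphs take the genes by the place of the peak.

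**Figure D2:**
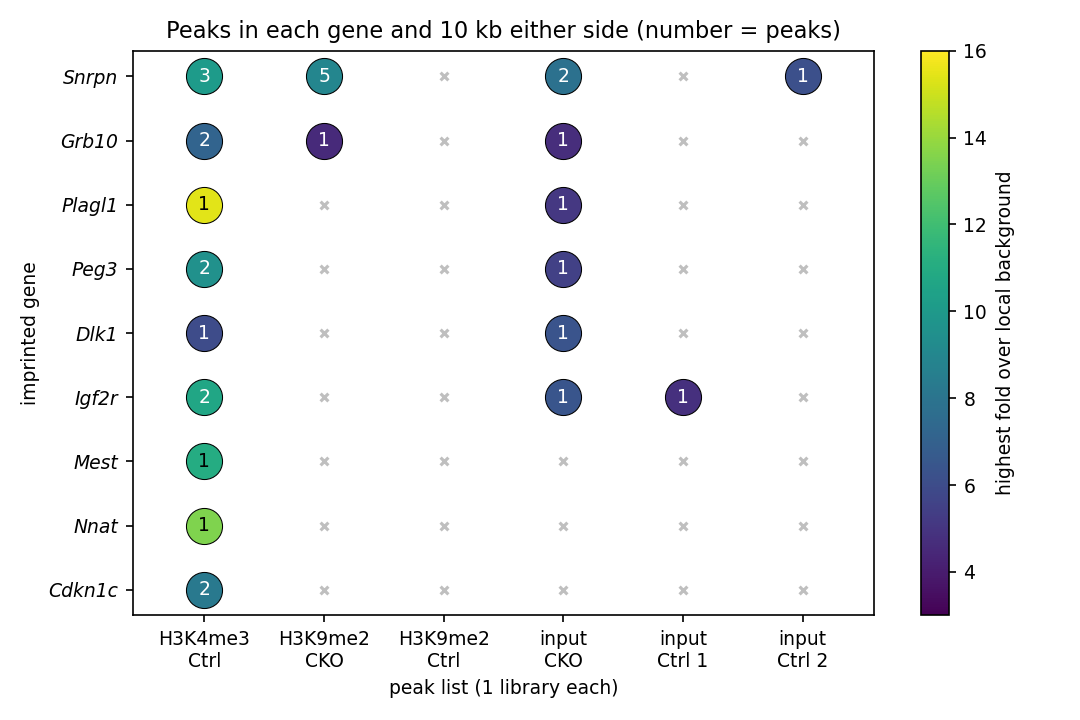
Each row is a gene and each column a peak list from 1 library. The number in a circle counts the peaks in the gene and 10 kb either side, colour gives the highest fold over local background, and a cross means no peak. H3K4me3 is present in each row, H3K9me2 in CKO at Snrpn and Grb10 alone, and H3K9me2 in Ctrl in none.

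At 5 genes a peak covered an annotated start site of the gene. Plagl1, which encodes a zinc finger transcription factor expressed from the paternal copy, had the highest fold of the 15, 15.4 with 68 fragments, at chr10:13090482-13091309. The non-coding Hymai transcript starts within the same peak. Mest, a paternally expressed gene for a protein of the hydrolase fold that also hosts Mir335, had a fold of 11 with 48 fragments at chr6:30737770-30738493, over its downstream start. Its upstream start lay 4.26 kb from that peak. The maternally expressed receptor gene Igf2r had 9.44 with 34 fragments at chr17:12769101-12769849.

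Peg3, a paternally expressed zinc finger gene active in muscle progenitor cells, had a wide peak of 1260 bp at chr7:6729258-6730517, with a fold of 8.45 and 37 fragments. It reached to within 66 bp of the start of Usp29, the ubiquitin peptidase gene that runs the other way. A second peak in the Peg3 window, at chr7:6696198-6696711, had a fold of 9.55 with 18 fragments and covered the start of Zim1, a neighbouring imprinted zinc finger gene. At Grb10, which encodes an adaptor of the insulin and IGF1 receptors, the peak at chr11:12036506-12037930 was the widest of the 15 with 1425 bp, and had a fold of 7.14 with 28 fragments. In the whole list 93.7% of peaks were as wide or narrower.

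Both Igf2r and Grb10 had a second H3K4me3 peak inside the gene, where their imprinting control regions are known to lie. That of Igf2r, at chr17:12742144-12742667, had a fold of 10.7 with 36 fragments and began 833 bp downstream of the annotated start of Airn, the antisense RNA that silences the paternal copy of Igf2r. The summits of both Igf2r peaks thus held nearly the same number of fragments, 36 inside the gene and 34 at its promoter. That of Grb10, at chr11:12025990-12026539, was weak, with a fold of 4.22 and 7 fragments (exact 95% Poisson interval 2.81 to 14.4), against 28 at its promoter (18.6 to 40.5). It lay 1.43 kb downstream of the downstream start site, from which Grb10 is transcribed in neurons.

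At Snrpn and Dlk1 the peak lay just downstream of the start. Snrpn encodes a spliceosomal protein, and its start site with Snurf lies in the control region of the Prader-Willi domain. The peak at chr7:60003916-60004990 began 209 bp downstream of that start, with a fold of 6.53 and 14 fragments, and 19.1% of the list had as few fragments at the summit or fewer. Dlk1, a transmembrane regulator of the Notch type that is expressed from the paternal copy, had a fold of 5.95 with 9 fragments at chr12:109453266-109453808, which began 443 bp downstream of its start. Both values were low for H3K4me3, whose list median was 52 fragments.

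Cdkn1c, the maternally expressed inhibitor of cyclin-dependent kinases p57Kip2, had a peak inside the gene at chr7:143459276-143460091, with a fold of 8.24 and 47 fragments. A second one, at chr7:143461081-143461411, lay just outside the gene, on the side of its higher coordinate. It had the lowest fold of the 15, 3.69, but still 22 fragments. Nnat encodes a small membrane proteolipid and lies within Blcap. The only peak in its window, at chr2:157565784-157566664 with a fold of 13.5 and 105 fragments, covered the start of Blcap, 5.71 kb from the start of Nnat. Nnat thus counts among the 9 through its neighbour, and with the gene alone or 2 kb on either side 8 of 9 had a peak.

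**Figure D3:**
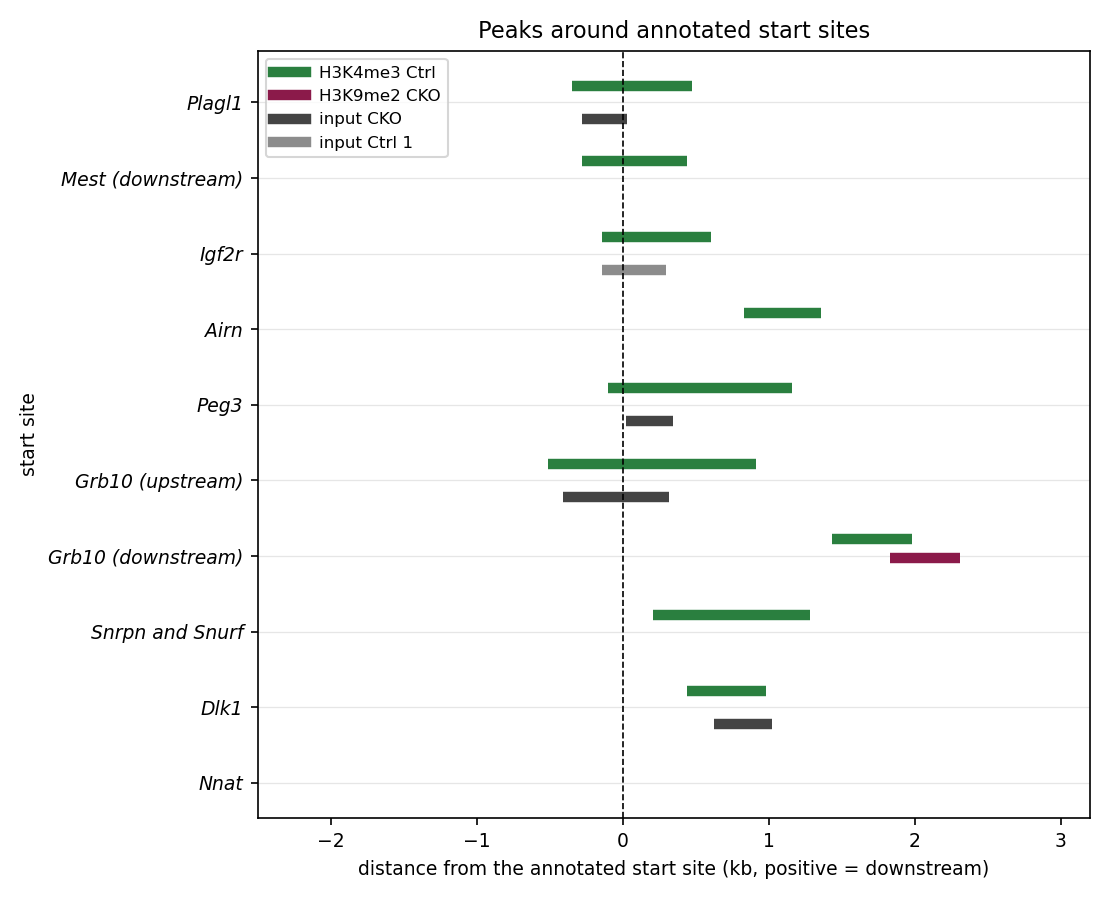
Bars show the extent of each peak relative to an annotated start site, in kb with positive values downstream, by list. H3K4me3 covers the start at Plagl1, Mest, Igf2r, Peg3 and upstream Grb10, begins 209 bp downstream at Snrpn and 443 bp downstream at Dlk1, and is absent around Nnat. The CKO H3K9me2 peak of Grb10 overlaps its internal H3K4me3 peak.

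H3K9me2 was found in CKO at 2 of the 9 genes, Snrpn and Grb10, and in Ctrl at none. Over all protein-coding genes, 19.4% had a CKO peak in the window and 6.34% a Ctrl peak, so both counts were near those of genes at large. A CKO peak with no Ctrl peak, as at Snrpn and Grb10, was found at 15.6% of all genes. There were 6 CKO peaks, 0.0468% of the 12832 in the list (exact 95% Clopper-Pearson interval 0.0172 to 0.102). Of the 3703 Ctrl peaks there were 0, with an upper limit of 0.0996% by the same interval. These shares describe 1 library each and were not tested against each other. The whole CKO list was 3.47 times as long as that of Ctrl, and the CKO input list was 3.56 and 8.35 times as long as those of Ctrl. The part of depth or of list length in the absence of Ctrl peaks was not tested. Intervals cover counting error alone. Those of the shares treat peaks as independent, although 5 of the 6 CKO peaks lay at 1 gene, Snrpn.

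Snrpn carried 5 of the 6 CKO peaks. The highest by fragments, at chr7:60350970-60351421, had 18 (exact 95% Poisson interval 10.7 to 28.4) and a fold of 7.97. The highest by fold, at chr7:60391267-60391645, had 14 fragments (7.65 to 23.5) and a fold of 8.95. Those at chr7:60155471-60156008 and chr7:60162814-60163654 had 8 fragments each with folds of 5.08 and 4.52, and that at chr7:60035775-60036131 had 6 with 4.51. In the whole list 46.2% of peaks had 8 fragments or fewer and 15.4% had 6 or fewer, with a median of 9. The summits with 8 were thus near the middle of the list, and that with 6 was low.

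No Snrpn start site lay under a CKO H3K9me2 peak. The peaks were 11.8 kb or more from the nearest annotated Snrpn start, and 30.6 kb separated the closest from the shared start of Snrpn and Snurf. All 5 were within the 468 kb RefSeq gene, between the Snurf start and the farthest upstream start. The 3 upstream promoter sequences were 79.7% to 81.4% identical to each other and 50.6% to 52.9% identical to the one at Snurf, so the upstream starts are related copies. How far reads from such copies could be placed was not tested.

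Snrpn is as long as or longer than 98.8% of protein-coding genes, and 5 peaks in its window gave 10.3 per Mb, against 4.5 per Mb for chromosome 7 and 4.83 for the genome. Only 0.685% of all genes had 5 or more CKO peaks, but 44.7% of the 257 genes at least as long did, with a median of 4 peaks. In the same 257 genes the median was 1 Ctrl peak, and 59.9% had at least 1. The nearest Ctrl H3K9me2 peak lay 75.1 kb outside Snrpn, with 6 fragments.

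**Figure D4:**
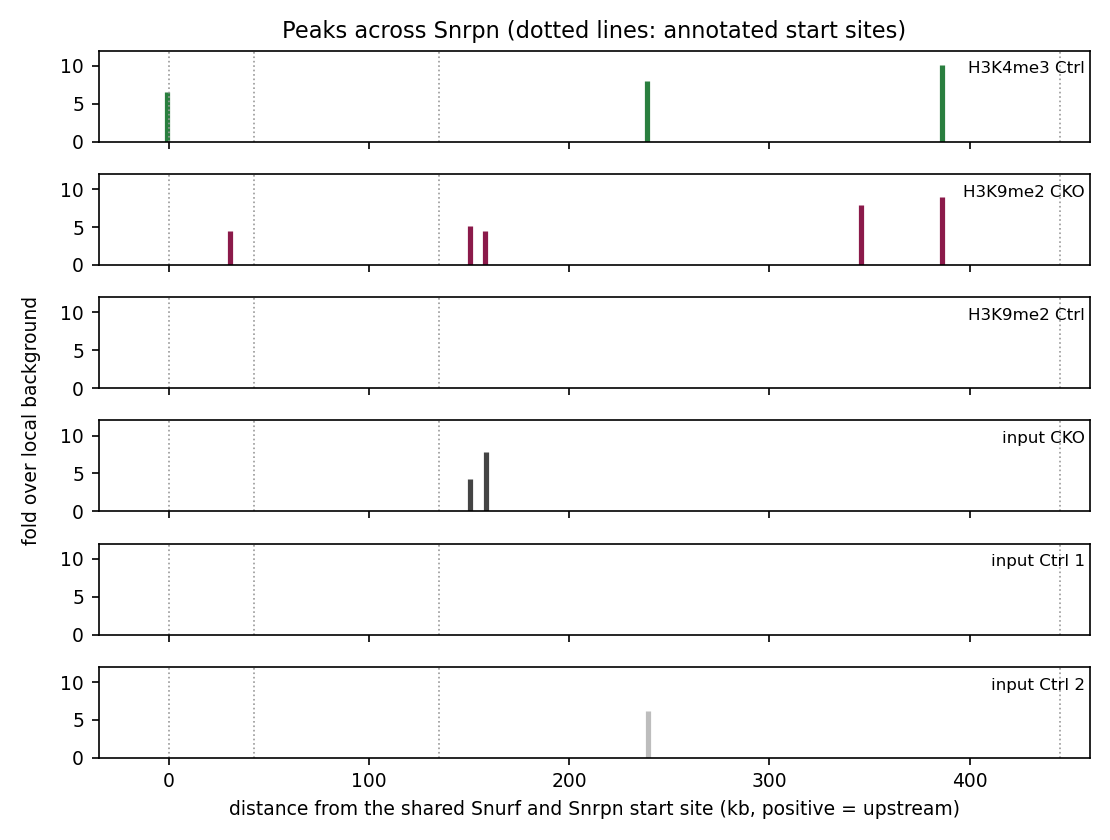
Peaks across Snrpn by list, as fold over local background against distance in kb from the start site shared with Snurf, with positive values upstream. The 5 CKO H3K9me2 peaks lie upstream of that start, 1 at the same place as an H3K4me3 peak and 2 at the places of CKO input peaks, and the Ctrl H3K9me2 panel is empty.

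Of the 5 Snrpn peaks, 2 were also in the CKO input. The peak at chr7:60155471-60156008, in the transcribed pseudogene Gm7367, contained an input peak with 5 fragments and a fold of 4.27. The peak at chr7:60162814-60163654 overlapped an input peak by 191 bp, where H3K9me2 had 8 fragments and a fold of 4.52 and the input had more, 14 and 7.85. Among all CKO H3K9me2 peaks, 19.8% overlapped a CKO input peak. Without peaks shared with any input, 3 peaks of Snrpn and that of Grb10 were left, at 2 of 9 genes, where 12.5% of genes had an input-free CKO peak. In Ctrl 0 of 9 had one, where 3.92% of genes did.

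Of these 4 input-free peaks, 2 overlapped H3K4me3 mapped in Ctrl, against 6.39% of the 9823 input-free CKO peaks. The Snrpn peak at chr7:60391267-60391645 lay wholly inside the H3K4me3 peak at chr7:60391225-60391656, which had 16 fragments and a fold of 10.1. This place is 58.5 kb from the nearest annotated Snrpn start and in no input list. The Grb10 peak at chr11:12025663-12026139, with 6 fragments (2.2 to 13.1) and a fold of 4.53, overlapped the weak internal H3K4me3 peak by 150 bp, 27.3% of the H3K4me3 peak and 31.4% of the H3K9me2 peak. It lay 1.83 kb from the downstream start and 11.3 kb from the upstream, CG-rich one. Both marks at this place rest on 6 and 7 fragments. None of the 4 could overlap a Ctrl H3K9me2 peak, since the windows of the 9 genes held none. Of all input-free CKO peaks 7.48% did.

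Input peaks fell at more of these genes than H3K9me2 did. The CKO input had 7 peaks at 6 of the 9 genes, against 39.8% of all genes. Ctrl inputs had 1 peak each, at Igf2r in input 1 and at Snrpn in input 2, where 11.8% and 5.37% of all genes had a peak. A peak in either Ctrl input was found at 2 of the 9 genes, against 15.5% of all genes, and none of the 9 had both. The 2 inputs are of the same genotype and nearly equal coverage. With 2 peaks, the 9 genes cannot show how far the 2 lists share genes.

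Of the 9 input peaks at these genes, CKO and Ctrl together, 6 lay on H3K4me3. The share over a whole input list was counted for CKO alone. Of the 7 CKO input peaks, 4 overlapped an H3K4me3 peak, at Plagl1, Peg3, Dlk1 and upstream Grb10, against 50% of the whole CKO input list. At Dlk1 the H3K4me3 library had 9 fragments and a fold of 5.95, against 13 fragments and a fold of 6.36 in the CKO input at chr12:109453447-109453849, the strongest of these 4 input peaks. The exact 95% Poisson intervals of these summits overlapped, 4.12 to 17.1 for H3K4me3 in Ctrl and 6.92 to 22.2 for the CKO input. Local background was 0.68 fragments for H3K4me3 and 1.2 for the CKO input. At Plagl1 the H3K4me3 peak had 68 fragments and the CKO input 6, at Peg3 37 and 9, and at upstream Grb10 28 and 7. At Igf2r the H3K4me3 promoter peak, with 34 fragments, enclosed the Ctrl input 1 peak, with 6.

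The Ctrl input 2 peak of Snrpn, at chr7:60244197-60244597, also lay inside an H3K4me3 peak, at chr7:60244017-60244651. H3K4me3 had 11 fragments with a fold of 8.03 and input had 7 with 6.19. Their centres were 104 kb from the nearest Snrpn start. These 2 peaks, at Igf2r and Snrpn, made 2 of 15 H3K4me3 peaks shared with a Ctrl input, against 11.9% of the whole H3K4me3 list. Mest, Nnat and Cdkn1c had no peak in any input or H3K9me2 list.

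Patterns across the 6 lists were compared by the highest fold per list, on a log2 scale with 0 where a list had no peak, for the 3 genes with peaks in at least 3 lists. Snrpn, in 4 lists, was closest to Pcgf5, a Polycomb gene, at a Euclidean distance of 0.59. Grb10 was closest to LOC102634078 (0.0722) and Igf2r to Atl1, which encodes atlastin (0.0471). The distances rest on 6 values each from single libraries.

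Other imprinted genes were counted the same way, from a list of 45 protein-coding genes described as imprinted in at least some mouse tissue, of which 40 had windows apart from those of the 9. Of the 40, 33 had an H3K4me3 peak (82.5%), 10 a CKO H3K9me2 peak (25%), 5 a Ctrl H3K9me2 peak (12.5%) and 18 a CKO input peak (45%). The highest H3K4me3 folds were those of Commd1 (16.5), Cobl (16.3), H13 (15.8) and Atp10a (15.7), so Plagl1 at 15.4 came close to them. For H3K9me2 in CKO they were Calcr (8.06), Atp10a (4.83), Slc22a2 (4.82) and Ube3a (4.73), and in Ctrl Ube3a (5.41), Rasgrf1 (4.79), Kcnk9 (4.31) and Calcr (4.31). H3K9me2 peaks in both genotypes were found at 4 of these 40 genes, and in 2 the peaks overlapped. Over all protein-coding genes, 19.4% had a CKO peak and 15.6% had a CKO peak with no Ctrl peak, so only the small remainder had both. The share of all genes with overlapping peaks was not counted.

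Ube3a, the ubiquitin ligase gene of the domain that also holds Snrpn, had 7 fragments in CKO and 9 in Ctrl at overlapping places. Peaks of the CKO input and of Ctrl input 1 lay there too. Both H3K9me2 peaks were inside an H3K4me3 peak at chr7:59228402-59229743, with 151 fragments and a fold of 10.5. Kcnk9, a potassium channel gene, had 6 in CKO and 5 in Ctrl at chr15:72495557-72496511 and chr15:72496197-72496566, with no input peak there. The highest CKO input folds were those of Ppp1r9a (7.12), Mkrn3 (6.57), Ube3a (6.38) and Cobl (6.09). In the Ctrl inputs Copg2, the neighbour of Mest, had the highest fold (9.27 in input 1), followed in input 1 by Ppp1r9a (6.72), Ube3a (5.71) and Rtl1 (5.16), and input 2 was led by Nap1l5 (6.02), Peg12 (4.74), Copg2 (3.85) and Calcr (3.76).

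**Figure D5:**
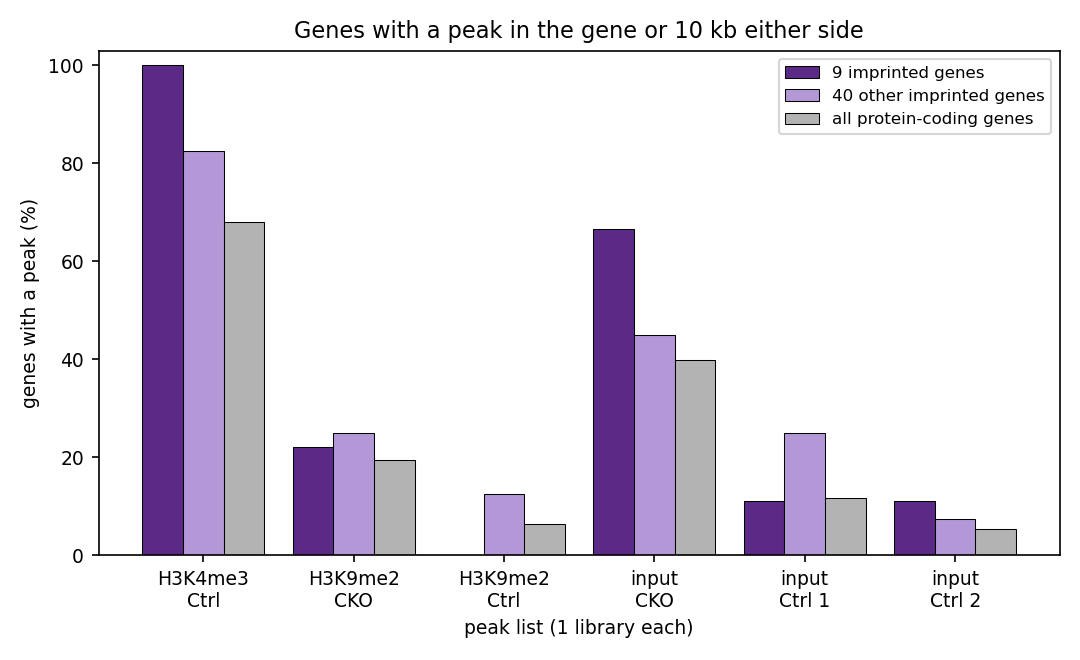
Bars give the percentage of genes with a peak in the gene or 10 kb either side in each list, for the 9 imprinted genes, 40 other imprinted genes and all protein-coding genes. The 9 genes stand at 100% for H3K4me3 and 66.7% for the CKO input, with 22.2% for CKO and 0% for Ctrl H3K9me2.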

How the data were processed

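The submitters' processing notes name Bowtie2, MACS2 and the mm10 build, without versions. The sources used here do not give how input was prepared, whether it served as control in calling, or whether libraries came from separate animals. Each deposited peak has 4 values from the authors: a fold (ratio of summit to local background, with 1 added to each), −log10 of the p-value, −log10 of the q-value, and a score near 10 times −log10 q. The lowest −log10 q is 1.3 to 1.34, so a limit near q of 0.05 was probably applied.

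From these files, autosomal, X and Y peaks were assigned to genes by an overlap of 1 bp or more with the RefSeq gene (GRCm38.p6, 21883 protein-coding genes) and 10 kb either side. The table has no exons, so exon and intron are not given. Summit fragments are the whole count that matches fold and p within 0.1%, found for 99.01% to 99.97% of peaks in each list and checked on simulated data. Input-free means no overlap with any of the 3 input lists. Percentages over all genes are the background of each count. Promoter sequences and start sites are from RefSeq, and identity from global alignment.

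The 9 genes, the lists and the motifs were chosen with earlier results of these data known. Named are the 9 genes, up to 4 other imprinted genes per list by fold, protein-coding neighbours at a described peak and, for genes with peaks in 3 or more lists, the most similar gene. Airn, Hymai, Gm7367 and the summary of Kcnk9 were added after their values were seen. The place of 1 CKO input peak is not reported here. No test between genotypes was made. Alternatives were q of 1e-05 or less, higher folds, other windows, peak centres, lists of equal length, other removal of input peaks and either Ctrl input left out. Computation used scipy 1.17.1, pandas 2.3.3, numpy 2.4.6 and Biopython 1.88 under Python 3.11.15, with plots by matplotlib 3.10.9.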

Additional observations from a re-analysis of the deposited data

How the results depend on the processing

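Of 96 recomputed values, 66 stayed within the limit set for them, 1.5 times for a count and the binomial interval for a percentage, and 30 did not. No paired analysis was possible because no test was made and no 2 groups share 2 replicate numbers. With q of 1e-05 or less, 14 H3K4me3 peaks were left at 9 genes, 2 CKO H3K9me2 peaks at 1 gene (both input-free), 3 CKO input peaks at 3 genes and 0 Ctrl input peaks at 0 genes. With folds at or above the list median, 5 H3K4me3 peaks were left at 5 genes, 2 CKO H3K9me2 peaks at 1 gene (2 input-free) and 1 Ctrl input peak at 1 gene. Lists shortened to 1309 peaks held 0 H3K4me3 peaks at 0 genes, 2 CKO H3K9me2 peaks at 1 gene (2 input-free), 2 CKO input peaks at 2 genes and 1 Ctrl input peak at 1 gene. In each of these settings the gene that kept H3K9me2 was Snrpn. With 20 kb either side, 1 Ctrl H3K9me2 peak, input-free, came in at 1 gene, Plagl1. Leaving out either Ctrl input left 1 Ctrl input peak at 1 gene each time, and 4 input-free CKO peaks. Against genes in the length range of the 9, the background for H3K4me3 was 74.9%, for the CKO input 43.2% and for either Ctrl input 16.8%. At 6 to 9 fragments per summit, a peak missing from a list does not show that the mark is absent.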

Other observations

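Mest and Nnat lay far from any H3K9me2 peak. In CKO the nearest peak was 964 kb from Mest and 1534 kb from Nnat, and only 4.41% and 2.4% of protein-coding genes were as far or farther. In Ctrl the distances were 1345 kb and 1447 kb, with 15.5% and 14% of genes as far. The median over all genes was 95.7 kb in CKO and 394 kb in Ctrl, and over the 9 genes 87.5 kb and 440 kb. These are the genes with no input peak in their window either, apart from Cdkn1c, for which the nearest H3K9me2 peak lay 87.5 kb away in CKO and 615 kb in Ctrl. The nearest Ctrl peak to any of the 9 was 17.8 kb outside Plagl1, with 4 fragments. Why the distances differ was not tested.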
